A study of Saccharomyces cerevisiae with 18 samples.

Results

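The proteasome genes of budding yeast were followed after induction of the phosphatase gene PPZ1. The genes were taken by symbol: 7 alpha and 7 beta subunits of the 20S core particle, 6 RPT ATPases, 4 other subunits of the base together with RPN10, 8 lid subunits, and 5 genes that encode no stable subunit of either particle, which are RPN4, UMP1, BLM10, ECM29 and UBI4. All 37 were found among the 6692 gene probes counted in the series. The strains compared were ZCZ01, which expresses PPZ1 from the galactose-inducible GAL1-10 promoter, and the wild type BY4741 from which it derives. Both grew in raffinose and both received galactose to 2%, so the sugar itself is shared by the groups. RNA was taken from each strain after 0.5, 2 and 4 h in 3 experiments, which gave 18 libraries. The sources used here do not say whether ZCZ01 is a single clone.

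The proteasome degrades proteins that carry chains of ubiquitin. Its 20S core is a barrel with proteolytic sites inside, formed by beta subunits and closed at its ends by alpha subunits, and the 19S particle on top recognizes, unfolds and deubiquitinates the substrate. In yeast the genes of both particles share a promoter element, named PACE, that is bound by the transcription factor Rpn4. Rpn4 is itself a very short-lived substrate of the proteasome, which makes the pair a feedback loop, and RPN4 transcription is known to respond to Hsf1, Yap1, Pdr1 and Pdr3, the activators of heat, oxidative and drug stress responses.

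Each library held between 955972 and 1920193 counts, and the 37 genes between 41 and 1325 counts per library. Levels are given as CPM, counts scaled to library size by the trimmed mean of M-values (TMM). QuantSeq 3′ libraries give reads from transcript ends, and no level is compared between genes here. PPZ1 itself had 38 to 834 counts in the ZCZ01 libraries and 7 to 17 in wild type. Its level differed by time and by experiment. In experiment 1 ZCZ01 had 508, 89.5 and 21.0 CPM of PPZ1 at 0.5, 2 and 4 h. Experiment 2 had 131, 394 and 96.5 CPM, and experiment 3 had 131, 458 and 89.1 CPM. Wild type in experiment 1 had 10.0 CPM at 4 h. LEU2, MET17 and URA3 are deleted in this background. LEU2 and MET17 had 0 or 1 count, but URA3 had 0 to 27. At 2 h the mean of URA3 was 1.47 CPM in ZCZ01 and 15.7 CPM in wild type, and the source of these reads was not tested. STE3 and MF(ALPHA)1, genes of the other mating type, had 5 to 48 counts in ZCZ01 at 2 and 4 h. The remaining libraries had 0 to 6. Genes of the strain's own mating type were higher in ZCZ01 at these times too. MFA1 had a mean of 2976 CPM in ZCZ01 and 613 CPM in wild type at 2 h, and 5601 and 1058 CPM at 4 h. The means at 2 h were 2255 and 874 CPM for MFA2, 436 and 263 CPM for STE2, and 152 and 73.9 CPM for BAR1. The part of these mating-type genes in the results was not tested. Libraries of experiments 2 and 3 were far closer to each other (chi-square over its degrees of freedom 1.12 to 2.60) than to experiment 1 (20.8 to 44.6). Experiment 3 held 1.323 to 1.335 times the counts of experiment 2 in every strain and time. Whether the 2 are separate cultures was not tested. The p-values below treat the 3 experiments as separate replicates and may be too small, so counts with experiments 2 and 3 summed to 1 replicate are given beside them. Fits without experiment 1 rest on experiments 2 and 3 alone, so their numbers of genes that pass may be too large. As the RNA comes from whole cultures, a lower share of cells that express a gene and less RNA per cell cannot be told apart.

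The letters GGTGGCAAA, the PACE core, were searched on both strands in the 300 bases before each start codon. They stood before 27 of the 32 subunit genes and 29 of the 37 genes, against 73 of 6002 genes (1.22%) in the R64 genome. PRE5, PUP1, RPN10, RPN13 and RPN8 were the subunit genes without them, and of the others RPN4, UMP1 and BLM10 had none. Below are sites of genes whose levels are described in detail, each read along the strand that shows the capitals, with PACE in capitals and 10 bases on each side (R64 genome, RefSeq). Distances are from the last base of the match, in the direction of the gene, to the start codon.
SCL1, chrVII:475337-475365, plus strand, 100 bases from the start codon: ctatccttacGGTGGCAAAttggtgtgtg
PRE6, chrXV:255218-255246, minus strand, 101 bases: tttcccttccGGTGGCAAAagaatcttcg
PUP3, chrV:349511-349539, minus strand, 175 bases: tggcactgccGGTGGCAAAaaagtgcaaa
PRE1, chrV:177683-177711, plus strand, 134 bases: aaatctttacGGTGGCAAAaaataaagaa
PRE7, chrII:141150-141178, plus strand, 79 bases: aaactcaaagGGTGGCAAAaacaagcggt
PRE4, chrVI:249959-249987, plus strand, 103 bases: acgtatttaaGGTGGCAAAttctaaacca
RPT1, chrXI:174048-174076, minus strand, 147 bases: ttagttttcgGGTGGCAAAattcggtaat
RPN5, chrIV:190776-190804, plus strand, 130 bases: ttgacttttcGGTGGCAAAatgcaaaggg
RPN7, chrXVI:742290-742318, minus strand, 146 bases: atcctcaatgGGTGGCAAActtaacttat
UBI4, chrXII:65349-65377, plus strand, 152 bases: cgaattcaaaGGTGGCAAAacccggagcc
A match is a description of these letters and does not show that Rpn4 was bound there.

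For RPN4 the 500 bases before the start codon were searched for the letters tied to its known activators. TCCGTGGA, a form of the Pdr1 and Pdr3 element, stood there in 2 copies and before 1.05% of all genes. TCCGCGGA, another form of it, had 0 copies there and stood before 0.65% of genes. TTACTAA, the Yap1 element, stood there once and before 11.8% of genes, and GAANNTTCNNGAA, a run of inverted Hsf1 units, stood there in 2 copies and before 1.48% of genes. Both strands were searched. The stretch shown holds, in capitals and in this order, a Pdr element, a second one on the other strand, the Yap1 element and one Hsf1 element. The other Hsf1 match lies 9 bases before the start codon and is not shown.
RPN4, chrIV:417034-417160, minus strand, bases 452 to 326 before the start codon: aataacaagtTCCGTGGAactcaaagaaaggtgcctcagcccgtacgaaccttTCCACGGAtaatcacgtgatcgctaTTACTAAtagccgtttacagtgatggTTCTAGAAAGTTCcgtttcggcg
UBI4 held AGGGG, the stress response element, once, 248 bases before its start codon, as 34.1% of genes held it in this window. It also held 2 overlapping Hsf1 matches, in capitals below, besides its PACE site.
UBI4, chrXII:65564-65601, minus strand, bases 394 to 357 before the start codon: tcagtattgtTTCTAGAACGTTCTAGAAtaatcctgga

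RPN4 mRNA was higher in ZCZ01 at 2 h and at 4 h. At 0.5 h it stood at 121, 112 and 104 CPM in ZCZ01, against 179, 135 and 123 CPM in wild type, in the order of the experiments. At 2 h the ZCZ01 libraries held 223, 167 and 177 CPM and the wild type libraries 86.1, 74.3 and 65.8 CPM. At 4 h the values were 296, 332 and 311 CPM in ZCZ01 and 92.8, 67.9 and 72.3 CPM in wild type. At 2 and 4 h every ZCZ01 library lay above every wild type library. The log2 fold change was -0.36 ± 0.16 (SE, adjusted p = 0.209) at 0.5 h, 1.33 ± 0.16 (adjusted p = 2.1e-05) at 2 h and 2.01 ± 0.16 (adjusted p = 4.39e-07) at 4 h. These and all comparisons below come from quasi-likelihood tests in edgeR, adjusted by Benjamini-Hochberg over the 5658 genes that entered the fit. The ratio of ZCZ01 to wild type was 1.69 ± 0.22 higher on the log2 scale at 2 h than at 0.5 h (adjusted p = 8.96e-05), and its difference between 4 h and 2 h, 0.69 ± 0.22, did not pass (adjusted p = 0.056).

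UBI4, the polyubiquitin gene that yeast uses under stress, was higher in ZCZ01 at 2 h and level with wild type at 4 h. At 2 h it had 119, 194 and 199 CPM in ZCZ01, against 45.9, 41.5 and 49.4 CPM in wild type, and the groups did not overlap. At 4 h it had 192, 138 and 141 CPM in ZCZ01 and 199, 139 and 133 CPM in wild type, and at 0.5 h 61.0, 97.7 and 106 CPM in ZCZ01 and 59.2, 122 and 137 CPM in wild type. The log2 fold change was 1.87 ± 0.18 at 2 h (adjusted p = 3.43e-06) and 0.01 ± 0.16 at 4 h (adjusted p = 0.967), and the ratio was lower at 4 h than at 2 h by a log2 difference of -1.86 ± 0.24 (adjusted p = 0.000631). Wild type UBI4 fell between 0.5 and 2 h (log2 change -1.18 ± 0.30, adjusted p = 0.00951) and rose between 2 and 4 h (1.80 ± 0.30, adjusted p = 0.00125). UBI4 shares nearly identical ubiquitin units with RPL40A, RPL40B and RPS31, and the sources used here do not say how reads that match several of them were counted.

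**Figure D1:**
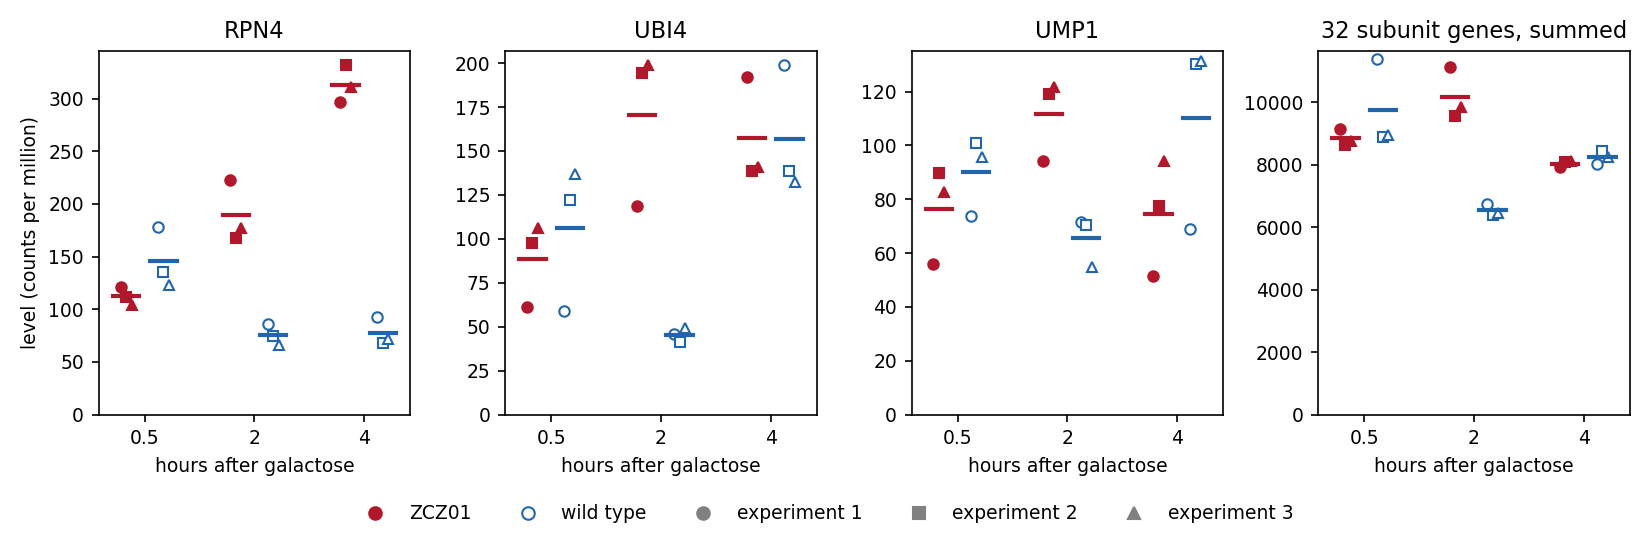
Levels in each library (points, CPM) by hours after galactose, ZCZ01 filled and wild type open, with bars at the mean of 3 experiments marked by circle, square and triangle. RPN4 stands at 296 to 332 CPM in ZCZ01 at 4 h, above all wild type libraries, while the summed 32 subunit genes hold 9559 to 11122 CPM in ZCZ01 and 6406 to 6756 CPM in wild type at 2 h.

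At 0.5 h no gene of the 37 passed the test in either direction, while 4.56% of all genes passed as higher and 2.3% as lower. At an unadjusted p under 0.05, 0 were higher and 2 lower, and DESeq2 called 0 in each direction. The median log2 fold change over the 37 was -0.11 and ran from -0.43 for PUP3, a beta subunit without a catalytic site, to 0.22 for RPN3. The 32 subunit genes together had 9162, 8629 and 8747 CPM in ZCZ01 and 11403, 8878 and 8947 CPM in wild type. Experiment 1 stood apart there, with a median log2 ratio over the 32 genes of -0.38, against -0.01 and -0.03 in experiments 2 and 3. Without experiment 1, 7 genes passed as higher and 5 as lower, in a fit in which 778 of 5585 genes were higher and 660 lower. That fit rests on the closely alike experiments 2 and 3.

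At 2 h the proteasome genes were higher in ZCZ01 as a group. Of the 37 genes, 30 passed as higher and 0 as lower, against 19.1% and 23.2% of all genes tested. For the 0, the count at an unadjusted p under 0.05 and the count by DESeq2 were 0 as well. The median log2 fold change was 0.66 over the 37 genes, against -0.05 over all genes tested, and 6 of the 30 reached 2-fold. The 32 subunit genes summed to 11122, 9559 and 9845 CPM in ZCZ01, against 6756, 6406 and 6462 CPM in wild type, so every ZCZ01 library held more subunit mRNA than any wild type library. Within experiments 1, 2 and 3 the median log2 ratio of the 32 genes was 0.76, 0.52 and 0.55, with 30, 30 and 31 of them above 0. With experiments 2 and 3 summed to 1 replicate, 16 genes passed as higher, namely SCL1, PRE9, PRE6, PUP2, PRE5, PRE10, PRE3, PUP1, PRE1, PRE2, RPT1, RPT3, RPN5, RPN4, UMP1 and UBI4, while 640 of 5731 genes were higher in that fit, and without experiment 2 or experiment 3 the count was 14 and 12. Over all genes, 594 of 5686 were higher without experiment 2 and 522 of 5646 without experiment 3. SCL1, PRE6, PUP2, PRE5, PRE10, PUP1, PRE1, RPT1, RPT3, RPN4 and UBI4 passed under each of the 12 alternatives of processing that were tried.

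All 7 alpha subunit genes were higher at 2 h, with log2 fold changes of 0.67 to 1.50 and a median of 0.79. SCL1, an alpha subunit gene, had 271, 402 and 404 CPM in ZCZ01 and 114, 125 and 136 CPM in wild type, a log2 fold change of 1.50 ± 0.16 (adjusted p = 7.46e-06). PRE8, the lowest of the 7, had 142, 169 and 178 CPM in ZCZ01 and 83, 105 and 121 CPM in wild type (0.67 ± 0.24, adjusted p = 0.0392). In both genes the groups did not overlap, but PRE8 did not pass with experiments 2 and 3 summed. PRE6 and PUP2 also exceeded 2-fold, at 1.17 ± 0.19 and 1.07 ± 0.17. All 7 beta subunit genes were higher too, at 0.51 to 0.90, though with experiments 2 and 3 summed PUP3, PRE7 and PRE4 did not pass. Those of the catalytic subunits were PUP1 (0.90 ± 0.21), the trypsin-like one, PRE3 (0.69 ± 0.14), the caspase-like one, and PRE2 (0.57 ± 0.14), the chymotrypsin-like one. PUP1 had 635, 317 and 294 CPM in ZCZ01, against 215, 213 and 201 CPM in wild type, and its difference was largest in experiment 1.

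Of the 6 RPT genes, whose ATPases unfold the substrate, 5 were higher at 2 h. With experiments 2 and 3 summed only RPT1 and RPT3 of these passed. RPT1 had 330, 283 and 257 CPM in ZCZ01, against 153, 160 and 138 CPM in wild type (0.94 ± 0.16, adjusted p = 0.000432). RPT2, which takes part in opening the core particle, had 594, 370 and 409 CPM in ZCZ01 and 294, 356 and 365 CPM in wild type, and did not pass (0.41 ± 0.18, adjusted p = 0.0798). Among the other base subunits and RPN10, RPN2 (0.54 ± 0.13, adjusted p = 0.00401) and the ubiquitin receptor RPN13 (0.51 ± 0.16, adjusted p = 0.018) were higher. Neither RPN2 nor RPN13 passed with experiments 2 and 3 summed. RPN1 (0.25 ± 0.13, adjusted p = 0.142) and the ubiquitin receptor RPN10 (0.44 ± 0.29, adjusted p = 0.244) did not pass.

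Of the 8 lid genes, 6 were higher at 2 h, and the log2 fold changes of the 8 ran from -0.13 to 1.12. RPN5 alone passed with experiments 2 and 3 summed, and DESeq2 called 4, without RPN3 and RPN11. RPN3 had 320, 232 and 203 CPM in ZCZ01 and 266, 53.2 and 90.5 CPM in wild type (1.12 ± 0.39, adjusted p = 0.0338), so the groups overlapped although each pair of libraries differed in the same direction. RPN5 (0.66 ± 0.14), RPN6 (0.36 ± 0.13), RPN9 (0.49 ± 0.15), RPN12 (0.77 ± 0.21) and RPN11 (0.35 ± 0.13), the deubiquitinase of the lid, passed as well. RPN8, the partner of RPN11, had 241, 370 and 404 CPM in ZCZ01 and 321, 375 and 390 CPM in wild type (-0.13 ± 0.14, adjusted p = 0.496), and RPN7 had 268, 234 and 229 CPM in ZCZ01 and 278, 196 and 236 CPM in wild type (0.05 ± 0.17, adjusted p = 0.821). Neither RPN7 nor RPN8 differed beyond the spread. RPN7 carries the PACE letters shown above and RPN8 carries none.

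UMP1, a chaperone that is built into the maturing core particle, was higher at 2 h, with 94.4, 119 and 122 CPM in ZCZ01 and 71.7, 70.4 and 54.7 CPM in wild type (0.77 ± 0.17, adjusted p = 0.00273). The alternative activator gene BLM10 (0.13 ± 0.16, adjusted p = 0.533) and ECM29 (0.24 ± 0.20, adjusted p = 0.354), whose product holds core and regulatory particle together, did not pass at 2 h.

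**Figure D2:**
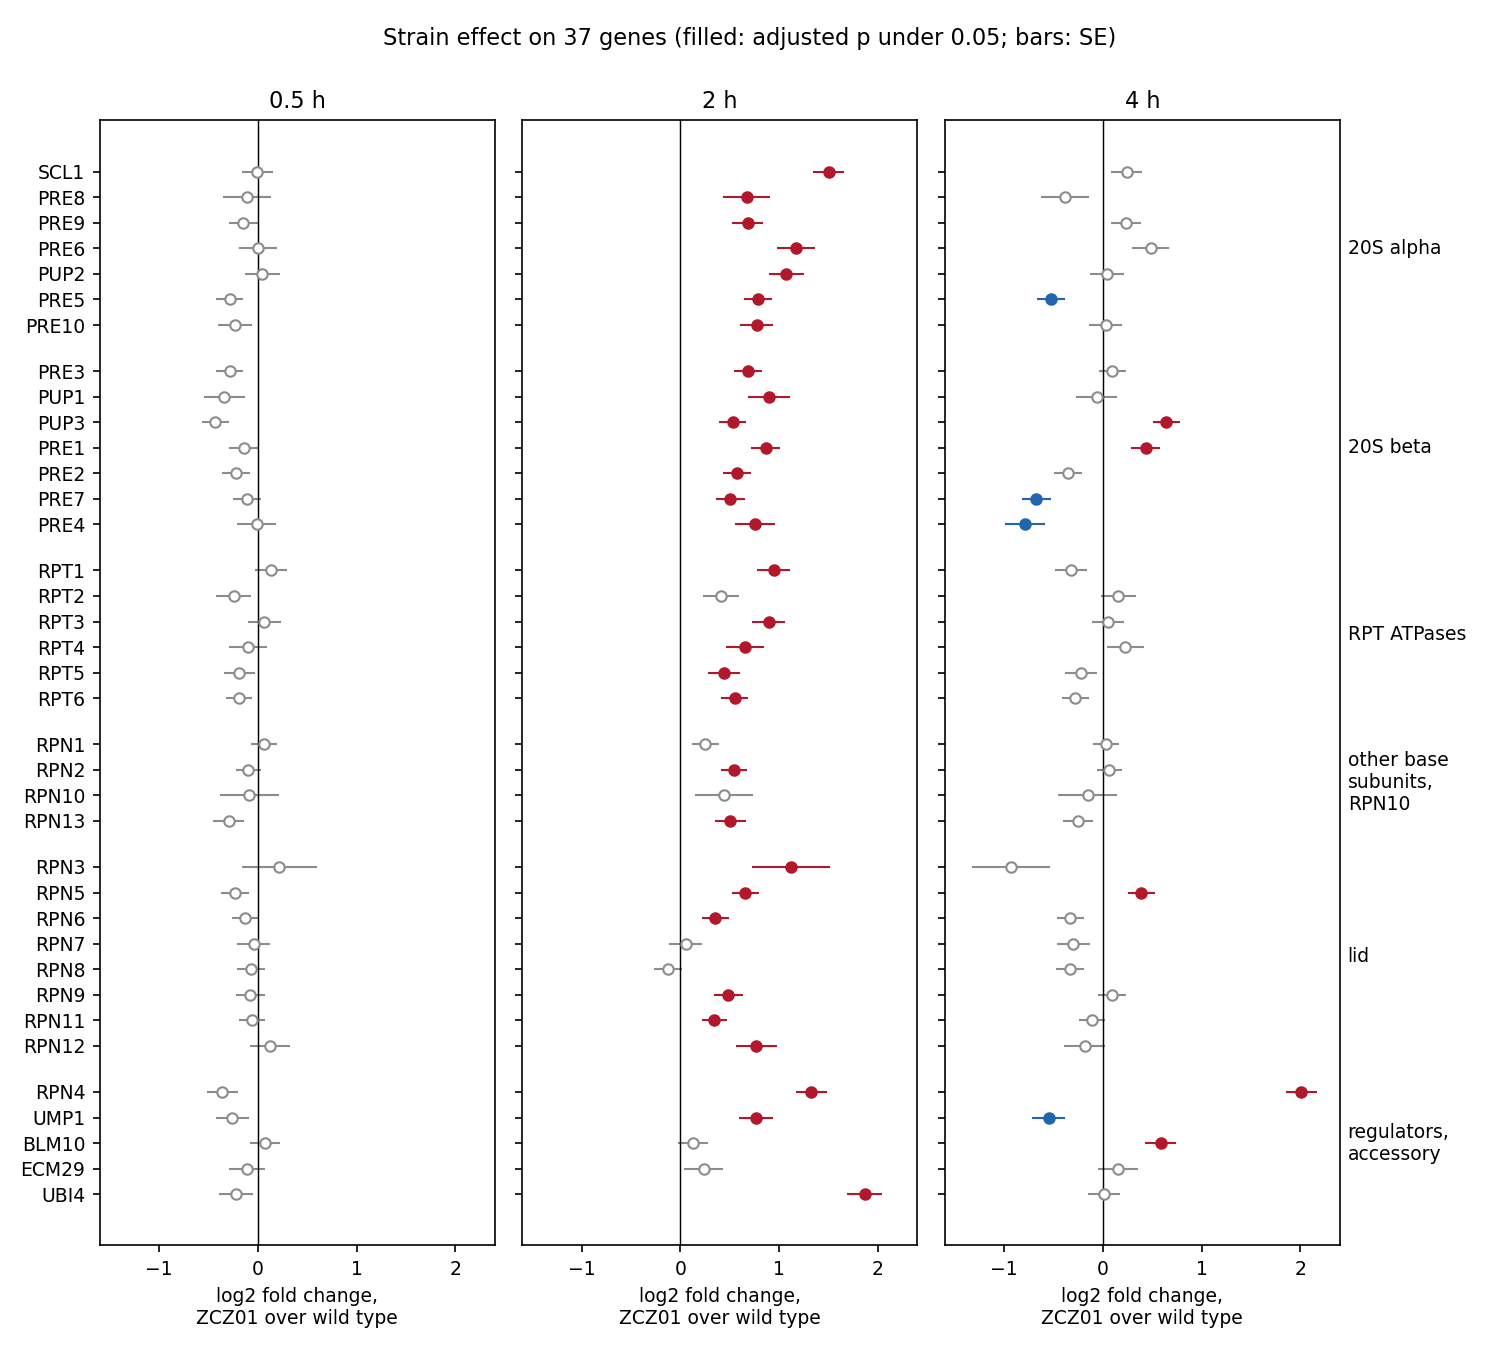
Log2 fold change of ZCZ01 over wild type (x axis, with SE bars) for the 37 genes grouped by role, at 0.5, 2 and 4 h. Filled points passed an adjusted p under 0.05, and 30 lie to the right of 0 at 2 h, against 5 to the right and 4 to the left at 4 h.

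At 4 h the strains no longer differed in one direction. Of the 37 genes, 5 passed as higher and 4 as lower, against 19.9% and 21.4% of all genes tested, and the median log2 fold change was 0.01. The 32 subunit genes summed to 7917, 8080 and 8116 CPM in ZCZ01, against 8028, 8457 and 8235 CPM in wild type, and the median log2 ratio over them was -0.04, -0.09 and -0.13 in experiments 1, 2 and 3. RPN4 was, as given above, 2.01 ± 0.16 higher on the log2 scale at that time. The other genes that passed as higher were PUP3, PRE1, RPN5 and BLM10, and those that passed as lower were PRE5, PRE7, PRE4 and UMP1. With experiments 2 and 3 summed, 2 genes passed as higher and 2 as lower, namely RPN4 and PUP3, and PRE7 and PRE4. Leaving out experiment 1, 2 or 3 gave 9, 1 and 3 genes higher and 10, 3 and 1 lower. Over all genes these 3 fits had 1510 of 5585, 627 of 5686 and 539 of 5646 higher, and 1455, 699 and 644 lower. The summed fit had 688 of 5731 genes higher and 723 lower.

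The beta subunit genes went apart at 4 h. PUP3 had 343, 318 and 327 CPM in ZCZ01, against 185, 201 and 252 CPM in wild type (0.64 ± 0.14, adjusted p = 0.00203). PRE1, another beta subunit gene, had 268, 289 and 297 CPM in ZCZ01 and 213, 201 and 218 CPM in wild type (0.43 ± 0.15, adjusted p = 0.0299). Both were thus higher at 2 h and at 4 h, with no overlap between groups at either time, but with experiments 2 and 3 summed PUP3 passed only at 4 h and PRE1 only at 2 h. PRE7 had 157, 151 and 131 CPM in ZCZ01, against 245, 232 and 221 CPM in wild type (-0.67 ± 0.15, adjusted p = 0.00231), and PRE4 had 50.8, 84.4 and 89.1 CPM in ZCZ01, against 115, 132 and 133 CPM in wild type (-0.79 ± 0.20, adjusted p = 0.00692). PRE7 and PRE4 were thus higher at 2 h and lower at 4 h, but with experiments 2 and 3 summed neither passed at 2 h. The lower level of PRE4 at 4 h passed under each of the 12 alternatives. PRE4, PUP3, PRE1 and PRE7 all hold the PACE letters printed above.

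In the other groups at 4 h, PRE5 of the alpha ring was lower (-0.52 ± 0.14, adjusted p = 0.00993), while PRE6, the highest of that ring, did not pass (0.48 ± 0.19, adjusted p = 0.0553). None of the 6 RPT genes passed, from RPT1 at -0.32 ± 0.16 to RPT4 at 0.23 ± 0.19, and none of the 4 other base genes with RPN10, from RPN13 at -0.25 ± 0.15 to RPN2 at 0.07 ± 0.13. At an unadjusted p under 0.05 none of these 10 passed either, and DESeq2 called none. In the lid RPN5, a scaffold subunit, was higher, with 352, 428 and 470 CPM in ZCZ01 and 261, 375 and 323 CPM in wild type (0.39 ± 0.14, adjusted p = 0.0373). RPN3 had 101, 149 and 136 CPM in ZCZ01, against 503, 166 and 167 CPM in wild type, and did not pass (-0.93 ± 0.40, adjusted p = 0.0763). Its difference was largest in experiment 1. Over the 12 alternatives its log2 fold change ran from -1.31 to -0.21, and it passed only without experiment 2. UMP1 was lower, at 51.3, 77.6 and 94.3 CPM in ZCZ01, against 69.1, 130 and 131 CPM in wild type (-0.55 ± 0.17, adjusted p = 0.0189), though DESeq2 did not call it. BLM10 was higher, at 192, 146 and 117 CPM in ZCZ01 and 115, 84.9 and 98.9 CPM in wild type (0.58 ± 0.16, adjusted p = 0.00909). ECM29 passed at none of the 3 times (0.16 ± 0.20 at 4 h, adjusted p = 0.57).

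Counting direction alone, 0 of the 37 genes were higher in all 3 experiments at 0.5 h and 14 were lower, against 21.7% and 20.4% of all genes. At 2 h 33 were higher in all 3 and 0 lower, against 28.9% and 34.1% of all genes, and the exceptions were RPN10, RPN7, RPN8 and BLM10. At 4 h 7 were higher and 15 lower, against 32.9% and 33.1%. These counts used no test. The share at 2 h was thus well above that of all genes, while at the other times the share higher was below it, and the shares lower at 0.5 and 4 h were above it by less.

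**Figure D3:**
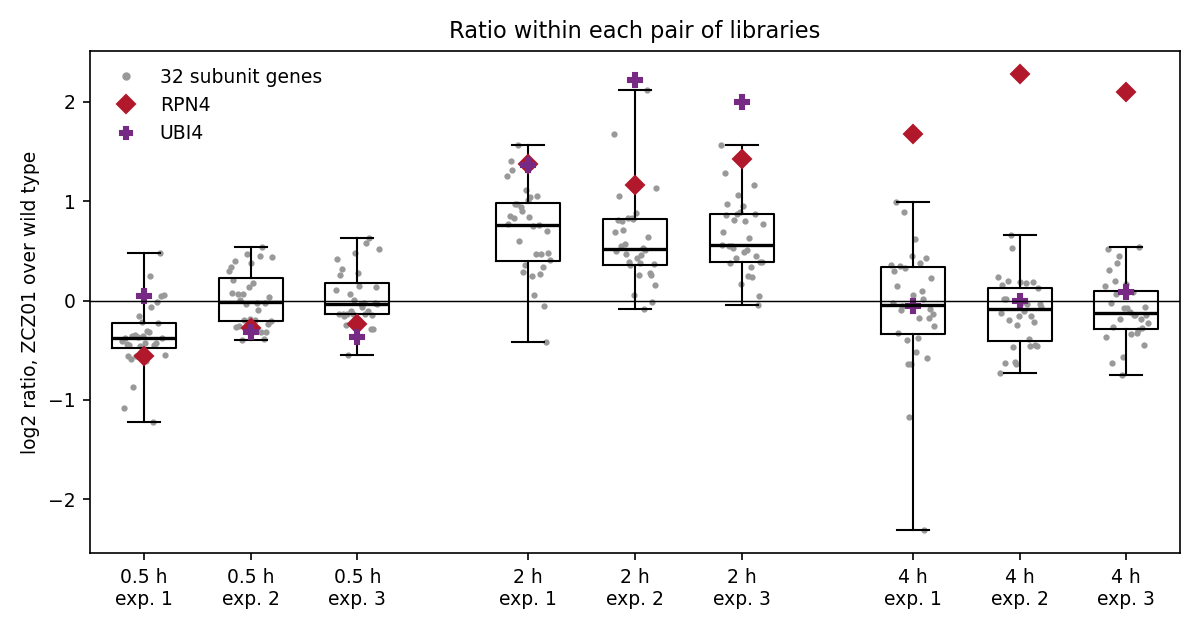
Log2 ratio of ZCZ01 over wild type within each pair of libraries, by time and experiment, for the 32 subunit genes (grey points, boxes from first to last quartile with the median, whiskers over the whole range), RPN4 (diamonds) and UBI4 (plus signs). The median of the 32 genes is 0.76, 0.52 and 0.55 at 2 h and -0.04, -0.09 and -0.13 at 4 h, when RPN4 is at 1.67, 2.28 and 2.10.

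The change of the strain ratio between times was tested itself. From 0.5 to 2 h the ratio of ZCZ01 to wild type went up in 23 of the 37 genes and down in 0, against 12.5% and 18.2% of all genes. For the 0, the unadjusted count was 0 and DESeq2 gave 0. From 2 to 4 h it went down in 16 and up in 0, against 6.88% and 6.86% of all genes, and for the 0 the unadjusted count was 1 and DESeq2 gave 0. The strongest falls from 2 to 4 h were RPN3 (-2.05 ± 0.56), UBI4 (-1.86 ± 0.24) and PRE4 (-1.55 ± 0.29). With experiments 2 and 3 summed, 11 genes passed between 0.5 and 2 h and 1 between 2 and 4 h. Without experiment 1, 2 or 3 the first count was 32, 11 and 9 and the second 31, 1 and 0. Over all genes the ratio went up from 0.5 to 2 h in 1022 of 5585, 361 of 5686 and 309 of 5646. It went down from 2 to 4 h in 963, 54 and 27. In the summed fit these were 377 and 43 of 5731.

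Between 0.5 and 2 h, 9 of the 37 genes rose and 2 fell in ZCZ01, and 26 did not pass, against 16.8% higher and 19% lower of all genes. RPN4 (0.75 ± 0.15), SCL1 (0.92 ± 0.22), PUP3 (0.58 ± 0.13) and RPN5 (0.55 ± 0.14) were among those that rose, and RPN7 (-0.58 ± 0.17) and ECM29 (-0.52 ± 0.19) were the 2 that fell. In wild type 19 fell and 0 rose, against 9.4% and 11.1% of all genes, with PRE2 (-0.91 ± 0.16), PRE3 (-0.82 ± 0.15) and RPN4 (-0.94 ± 0.16) among them. For the 0, the unadjusted count and that by DESeq2 were 0, and all 37 log2 changes in wild type were below 0. The median change of the 37 genes was 0.23 in ZCZ01 and -0.59 in wild type. The difference between strains at 2 h thus holds a fall in wild type and a smaller rise in ZCZ01. The 9 genes that rose in ZCZ01 lay nearer the share of all genes than the 19 that fell in wild type. Without experiment 1, 2 or 3, 17, 1 and 0 genes rose and 5, 0 and 0 fell in ZCZ01, and 29, 3 and 2 fell in wild type. Over all genes, 1594 of 5585, 366 of 5686 and 325 of 5646 rose in ZCZ01 in these fits. Those that fell were 1513, 440 and 408 in ZCZ01 and 1204, 138 and 120 in wild type. With experiments 2 and 3 summed, 1 rose and 0 fell in ZCZ01, and 3 fell in wild type. In that fit 408 of 5731 genes rose and 444 fell in ZCZ01, and 147 fell in wild type.

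Between 2 and 4 h in ZCZ01, RPN4 was the 1 gene that rose (0.74 ± 0.15, adjusted p = 0.00598), and 5 fell, namely PRE5 (-0.67 ± 0.16), PRE7 (-0.53 ± 0.14), PRE4 (-0.87 ± 0.23), RPT1 (-0.88 ± 0.16) and RPT6 (-0.57 ± 0.14), against 2.63% higher and 3.46% lower of all genes. The other 27 subunit genes did not pass, and RPN4 was not tested against the subunit genes. The median change of the 32 subunit genes in ZCZ01 was -0.43. In wild type RPN4 stayed within its spread (0.04 ± 0.16, adjusted p = 0.904), while 5 genes rose and 0 fell, against 5.18% and 5.76% of all genes. These were SCL1 (0.76 ± 0.23), PRE5 (0.63 ± 0.16), PRE7 (0.65 ± 0.14), UMP1 (0.68 ± 0.21) and UBI4. For the 0, the unadjusted count was 1 and DESeq2 gave 0. With experiments 2 and 3 summed none of the genes passed between these times in either strain. Few of all 5731 genes did, with 5 that rose and 29 that fell in ZCZ01, and 15 and 3 in wild type. Without experiment 1, 2 or 3, 1, 0 and 0 rose and 18, 0 and 0 fell in ZCZ01, and 27, 0 and 0 rose and 1, 0 and 0 fell in wild type. Over all genes, 755 of 5585, 5 of 5686 and 4 of 5646 rose in ZCZ01 in these fits, and 693, 18 and 22 fell. In wild type 1012, 9 and 10 rose and 987, 0 and 1 fell.

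**Figure D4:**
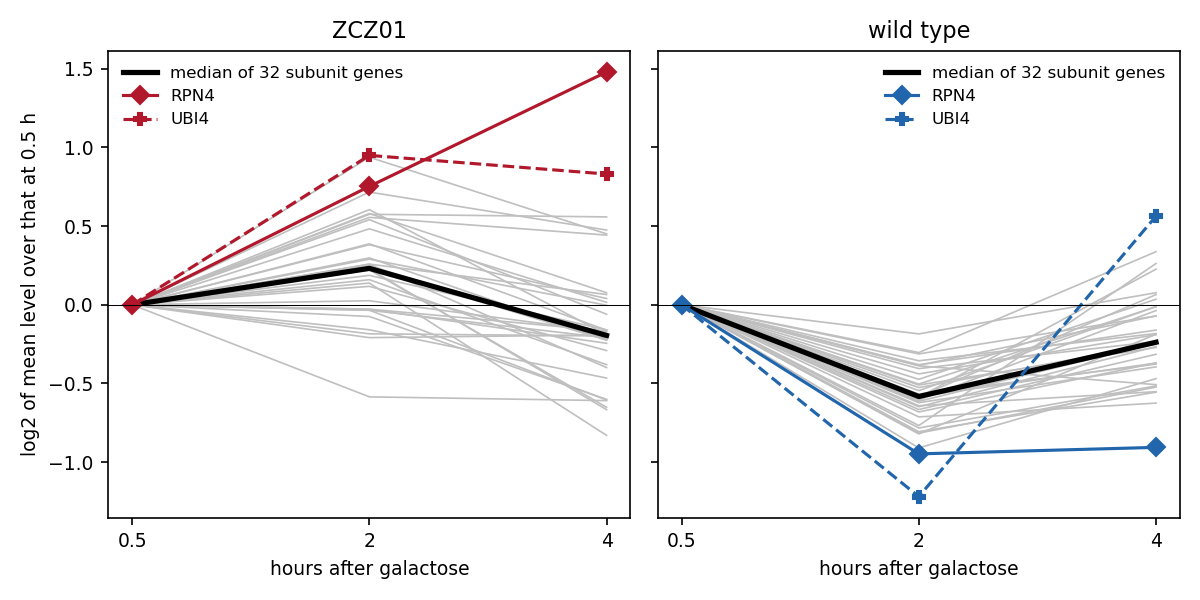
Log2 of the mean level over that at 0.5 h (y axis) by hours after galactose in ZCZ01 (left) and wild type (right) for the 32 subunit genes (grey lines), their median (black), RPN4 and UBI4. The median of the 32 genes goes to 0.23 at 2 h and -0.19 at 4 h in ZCZ01, and to -0.58 and -0.24 in wild type, while RPN4 goes to 1.48 at 4 h in ZCZ01 and to -0.91 in wild type.

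Subunit genes with and without the PACE letters both moved at 2 h. Of the 27 with them 24 passed as higher, with a median log2 fold change of 0.66, and of the 5 without them 3 passed, PRE5, PUP1 and RPN13, with a median of 0.51. Outside the 37 genes, 43 probes have the letters in the same window and 41 of them were tested. At 2 h 12 of these 41 were higher and 5 lower, with a median of 0.05, and at 4 h 10 were higher and 10 lower, with a median of 0.00. Of all genes tested, 19.1% were higher and 23.2% lower at 2 h. The 4 h shares were 19.9% higher and 21.4% lower. No test was made between these 41 genes and the subunit genes.

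Other genes of the pathway were taken as 51 genes in 6 lists, all tested, of which 13 passed as higher and 7 as lower at 2 h, and 10 and 7 at 4 h. Over all genes tested, 19.1% were higher and 23.2% lower at 2 h, and 19.9% and 21.4% at 4 h, so the counts of higher genes lay near the background and those of lower genes below it. At 0.5 h RAD6 was the 1 gene that passed, as higher, and DESeq2 did not call it, while it called TMA17 as lower. Their median log2 fold change was 0.18 at 2 h and 0.05 at 4 h. The Cdc48 segregase, its cofactors and the shuttle factors that carry ubiquitinated proteins to the proteasome had 6 of 9 genes higher and 0 lower at 2 h, and 3 higher and 1 lower at 4 h. For the 0, the count at an unadjusted p under 0.05 was 1 and DESeq2 gave 0. RAD23, a shuttle factor, had 197, 198 and 208 CPM in ZCZ01 and 127, 114 and 109 CPM in wild type at 2 h (0.79 ± 0.13, adjusted p = 0.000419), and was lower at 4 h (-0.52 ± 0.14, adjusted p = 0.00723). NPL4, a Cdc48 cofactor, was higher at both times (0.93 ± 0.17 and 0.84 ± 0.17), and so was YNL155W, also named CUZ1 (0.84 ± 0.17 and 0.64 ± 0.17). CDC48 itself did not pass (0.05 ± 0.15 at both times).

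The dedicated assembly chaperones and the small lid subunit gene SEM1 had 2 of 10 higher and 2 lower at 2 h, near the shares of all genes given above, and 0 higher and 4 lower at 4 h. For the 0 at 4 h, the unadjusted count was 0 and DESeq2 gave 0. DESeq2 called 1 higher and 2 lower at 2 h, and 2 lower at 4 h, when it called 1018 of 5658 genes lower. POC4, which with IRC25 helps to build the alpha ring, had 14.2, 20.8 and 9.62 CPM in ZCZ01 and 53.4, 43.8 and 50.6 CPM in wild type at 2 h (-1.77 ± 0.28, adjusted p = 0.00019), and 6.07, 14.9 and 10.8 CPM in ZCZ01 and 36.6, 42.4 and 30.9 CPM in wild type at 4 h (-1.83 ± 0.29, adjusted p = 0.000248). POC4 was thus lower at the time when all 7 alpha subunit genes were higher, and its groups did not overlap at either time. TMA17, a stress-induced chaperone of the base, was higher at 2 h alone, at 117, 155 and 165 CPM in ZCZ01 and 66.6, 68.1 and 55.3 CPM in wild type at 2 h (1.19 ± 0.23, adjusted p = 0.00109) and with no difference that passed at 4 h (-0.00 ± 0.22). NAS6, another chaperone of the base, was lower at both times (-0.52 ± 0.16 and -0.76 ± 0.16).

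Genes that attach ubiquitin had 4 of 16 higher and 1 lower at 2 h, and the same numbers at 4 h, the higher ones near the share of all genes. Of the conjugating enzymes, UBC4 was higher at both times (0.79 ± 0.11 and 0.58 ± 0.11) and RAD6 at 0.5 and 2 h (0.99 ± 0.24 and 1.42 ± 0.22), at 0.5 h by edgeR only. SAN1, a ligase for misfolded nuclear proteins, was lower at both 2 h (-1.32 ± 0.22) and 4 h (-0.87 ± 0.22). Of 9 genes of ubiquitin removal and recycling, 1 was higher and 1 lower at 2 h, and 2 were higher and 0 lower at 4 h. For the 0, the unadjusted count and that by DESeq2 were 0. UBP1 was lower at 2 h (-0.71 ± 0.16) and higher at 4 h (0.64 ± 0.17), while DOA1 was higher at 2 h (0.57 ± 0.17) and UBP14 at 4 h (1.03 ± 0.38), the last on 7 to 46 counts per library. The 3 genes that make ubiquitin fused to a ribosomal protein ran against UBI4 at 2 h, when all 3 were lower, RPL40A by -0.73 ± 0.12, RPL40B by -0.70 ± 0.14 and RPS31 by -1.32 ± 0.15. At 4 h RPL40B was lower (-0.93 ± 0.14), and RPL40A and RPS31 did not pass. The ratio of RPL40B did not differ beyond the spread between 2 and 4 h (-0.23 ± 0.20, adjusted p = 0.453).

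Of the activators of RPN4 transcription, HSF1 reached 49.7, 71.6 and 75.8 CPM in ZCZ01, against 20.7, 57.5 and 56.8 CPM in wild type at 4 h (0.63 ± 0.24, adjusted p = 0.0451), and did not pass at 2 h (0.59 ± 0.23, adjusted p = 0.0571). The groups overlapped at 4 h. YAP1 (0.21 ± 0.15 at 2 h and -0.08 ± 0.15 at 4 h), PDR1 and PDR3 (0.51 ± 0.46 and -0.74 ± 0.46) passed at no time. Thus 1 of these 4 genes passed as higher at 4 h and 0 at 2 h, where the unadjusted count was 1 and DESeq2 gave 0. Of all genes tested, 19.9% were higher at 4 h and 19.1% at 2 h. A list of 4 genes is too short to be set apart from these shares. At 4 h DESeq2 gave 0 as well, so the call of HSF1 rests on edgeR, as does that of UBP14 at 4 h. Of the genes named from these lists, with experiments 2 and 3 summed, NAS6, UBP1, DOA1 and RPL40B did not pass at 2 h, nor RAD23, YNL155W, UBP14 and HSF1 at 4 h, nor RAD6 at 0.5 h.

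**Figure D5:**
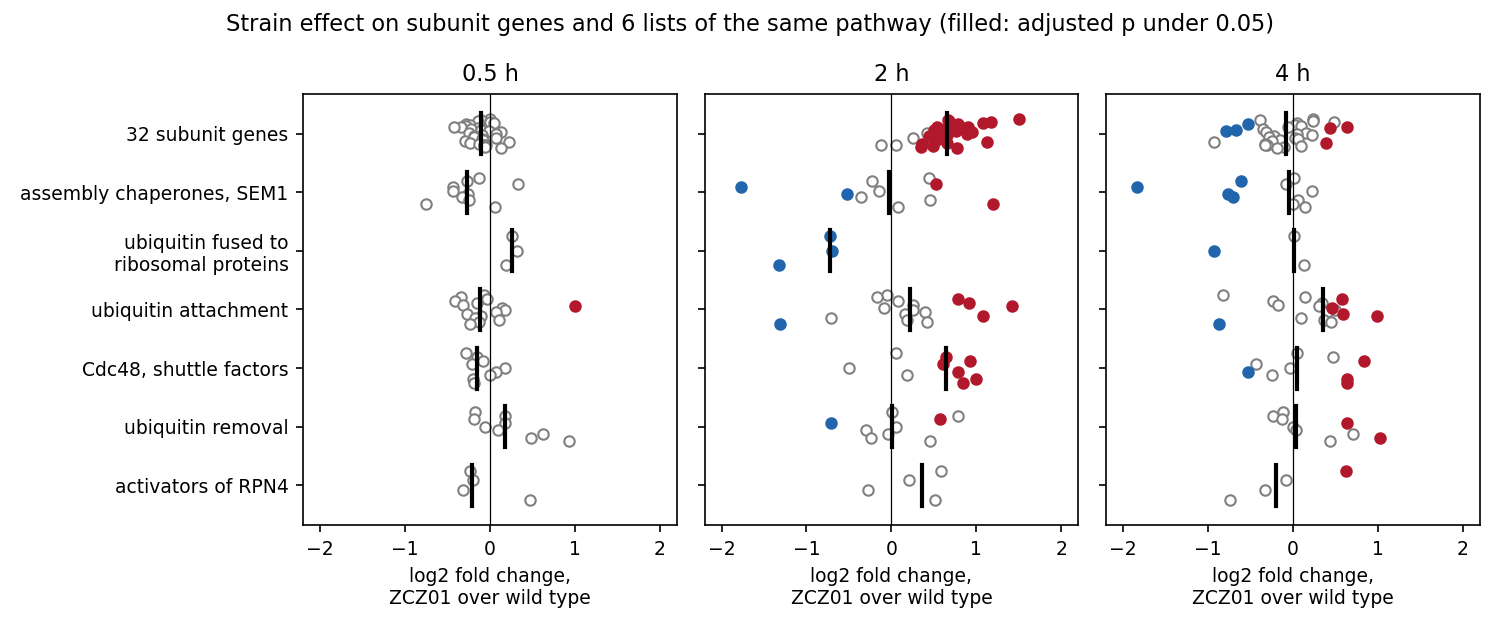
Log2 fold change of ZCZ01 over wild type (x axis) for the 32 subunit genes and the 51 other genes by list, at 0.5, 2 and 4 h, with a bar at each median and filled points for an adjusted p under 0.05. At 2 h the subunit genes have a median of 0.66, the Cdc48 and shuttle factors 0.64 and the ubiquitin fusions -0.73.

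Some counts can hold reads of a neighbor, since each probe is a gene with 100 nt downstream. Among the 37, RPT1 overlaps another gene on its own strand, and PRE8, PUP2, PRE7, PRE4, RPT4, RPN10, RPN8, RPN9 and RPN12 overlap one on the opposite strand. The sources used here give no strand setting for the counting, so reads of the neighbor cannot be told apart from those of these genes.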

How the data were processed

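RNA of ZCZ01 and wild type BY4741 was made into QuantSeq 3′ libraries. The deposited values are raw read counts per gene probe, made by the authors from reads aligned with Bowtie2 (per the submitters' processing notes) and not normalized. Genome build, counting tool and strand setting are not given in the sources used here. Of 6692 probes, 5977 matched an R64 gene and 5966 of these, all 37 genes included, equal the gene with 100 nt downstream. For 12 libraries the title and the library name disagree on the time, and times here follow the library name.

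Counts were filtered by filterByExpr (5658 probes) and scaled by TMM in edgeR 4.0.16 (R 4.3.3). The strain effect was fitted per time with 9 blocks, 1 per pair of same-experiment, same-time libraries, and times within a strain with experiment as block. A gene passed at an adjusted p under 0.05. The pairs come from the library names. Deviations of paired libraries from the mean of their group correlated at 0.54 to 0.82. As experiment 1 stands apart from experiments 2 and 3, this cannot show which libraries of experiments 2 and 3 form pairs. Alternatives were other blocks, each time alone, RLE scaling, total counts, DESeq2 1.42.0, other filters, each experiment left out, and experiments 2 and 3 summed. The fit was tested on simulated data drawn as independent replicates, so this does not cover the close likeness of experiments 2 and 3.

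The 37 genes and the lists were chosen with earlier results of these data known. Named genes are the 5 that are no subunits, the highest and lowest of each structural group at 2 and 4 h, and 3 of each other list by smallest p. CDC48 and UBP14's counts, and further subunit genes given in passing, were chosen after their values were seen. Python 3.11.15, numpy 2.4.6, pandas 2.3.3 and matplotlib 3.10.9 were used for sequence searches and figures.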

Additional observations from a re-analysis of the deposited data

Results flagged for a closer look

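The ratio of ZCZ01 to wild type differed between times, tested as a contrast of the strain effects in edgeR's quasi-likelihood fit. It was higher at 2 h than at 0.5 h in 23 of the 37 genes, with log2 differences of SCL1 (1.51), PRE9 (0.83), PRE6 (1.17), PUP2 (1.03), PRE5 (1.08), PRE10 (1.00), PRE3 (0.97), PUP1 (1.24), PUP3 (0.96), PRE1 (1.01), PRE2 (0.80), PRE7 (0.62), RPT1 (0.81), RPT3 (0.83), RPT4 (0.75), RPT5 (0.63), RPT6 (0.74), RPN2 (0.64), RPN13 (0.80), RPN5 (0.89), RPN4 (1.69), UMP1 (1.03) and UBI4 (2.09).

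It was lower at 4 h than at 2 h in 16 genes, with log2 differences of SCL1 (-1.26), PUP2 (-1.03), PRE5 (-1.31), PUP1 (-0.96), PRE2 (-0.92), PRE7 (-1.18), PRE4 (-1.55), RPT1 (-1.26), RPT3 (-0.84), RPT6 (-0.83), RPN13 (-0.76), RPN3 (-2.05), RPN6 (-0.68), RPN12 (-0.95), UMP1 (-1.32) and UBI4 (-1.86). RPN4 is in the first list and not in the second, where its log2 difference was 0.69. With the closely alike experiments 2 and 3 summed, 11 and 1 genes passed, as 377 and 43 of 5731 genes did. In the reported fit 12.5% of all genes were higher at 2 h than at 0.5 h. At 4 h 6.88% were lower than at 2 h.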

How the results depend on the processing

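The 12 alternatives left RPN4 and UBI4 higher at 2 h and RPN4 higher at 4 h, while counts of genes moved. Without experiment 1, 2 or 3 the number of the 37 genes ran as follows. At 0.5 h 0 to 7 were higher and 0 to 5 lower, and 1 was lower with a mean of at least 50 counts. At 2 h 12 to 31 were higher. At 4 h 1 to 9 were higher and 1 to 10 lower. The ratio was higher at 2 h than at 0.5 h in 9 to 32, and lower at 4 h than at 2 h in 0 to 31 and higher in 0 to 2. From 0.5 to 2 h 0 to 17 rose and 0 to 5 fell in ZCZ01 and 2 to 29 fell in wild type. From 2 to 4 h 0 to 1 rose and 0 to 18 fell in ZCZ01, and 0 to 27 rose and 0 to 1 fell in wild type. With experiments 2 and 3 summed, 16 were higher at 2 h, 2 were higher and 2 lower at 4 h, and the ratio was higher at 2 h than at 0.5 h in 11 and lower at 4 h than at 2 h in 1. There, 1 rose and 0 fell in ZCZ01 from 0.5 to 2 h, 0 rose and 0 fell from 2 to 4 h, and in wild type 3 fell and then 0 rose. These fits hold fewer samples, and the fit without experiment 1 rests on the closely alike experiments 2 and 3. The numbers of all genes that passed, given above, moved between these fits too.

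Without a replicate block, so with pairing ignored, 21 were higher at 2 h, 3 were higher and 2 lower at 4 h, and the ratio was higher at 2 h than at 0.5 h in 14 and lower at 4 h than at 2 h in 5. In ZCZ01 5 rose and 1 fell from 0.5 to 2 h and 0 rose and 1 fell from 2 to 4 h, and in wild type 2 rose from 2 to 4 h. With 1 replicate block per experiment the ratio was higher at 4 h than at 2 h in 1. This block and each time fitted alone could not be used between times within a strain, where the reported fit already has experiment as block. With total counts only, 16 rose and 0 fell in ZCZ01 from 0.5 to 2 h and 10 rose in wild type from 2 to 4 h. DESeq2 gave 1 that fell in ZCZ01 from 0.5 to 2 h and 9 that rose in wild type from 2 to 4 h. The filter on a mean of 50 counts gave 1 and 8 for the same changes. The cause of these moves was not tested. Over all 5658 genes, no replicate block gave 744 higher and 890 lower at 2 h, and 739 and 847 at 4 h. Total counts gave 1374 genes that rose and 735 that fell in ZCZ01 from 0.5 to 2 h.

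Total counts only moved the median log2 fold change of all genes at 2 h by 0.14 and that of the ratio from 0.5 to 2 h by 0.21, and made the split of all genes at 2 h 1340 higher and 1012 lower, against 1079 and 1313 with TMM. The 32 subunit genes then had a median of 0.80 at 2 h. Without 1 experiment in turn the sign turned for genes that had not passed in the reported fit. Without experiment 1, PRE8 and RPN10 passed as higher at 0.5 h in edgeR (adjusted p = 0.0204 and 0.00266). The range was -0.41 to 0.38 for PRE8, -0.43 to 0.52 for RPN10, -0.48 to 0.47 for UFD2 and -0.30 to 0.36 for DSK2 at 0.5 h, -0.49 to 0.69 for UBA1 at 2 h and -0.55 to 0.73 in ZCZ01 from 0.5 to 2 h, -0.11 to 0.12 for RPL40A at 4 h, -0.64 to 0.43 for UFD2 in the ratio from 2 to 4 h and -0.78 to 1.58 for PPZ1 in that from 0.5 to 2 h. Depth limits RFU1, UBP8, DOA4 and PDR3, whose lowest libraries held 0, 1, 4 and 5 counts.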
